A study of Homo sapiens with 18 samples.

Results

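MDA-MB-231 cells carrying exogenous TRA2A held a set of exon-exon junctions whose array signal stood far below that of control cells, while the same junctions in paclitaxel-treated cells stayed near the control level. These junctions numbered 1246 of the 339146 junction probe sets on the array (0.367%). They were chosen on the measured values themselves. The mean log2 value over the 3 arrays labelled 231T had to lie at least 4 below the mean of the 3 control arrays, the highest 231T array had to lie below the lowest control array, and the mean of the 3 PTX arrays had to lie within 1 of control. The differences from control of these junctions in 231T and in PTX are therefore descriptions, and no test of either is given for them.

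All arrays carried RNA of MDA-MB-231, a long-established line of human breast cancer of the triple-negative kind, grown in medium with fetal bovine serum. The control group was labelled only as control cells. The free-text descriptions of control replicates 2 and 3 spell the line with a different last digit each, while their source and cell line labels give MDA-MB-231, which is followed here. PTX cells were grown with paclitaxel at 10 nM (it stabilises microtubules), and 231T cells received a vector for TRA2A. No empty vector, promoter, clone, exposure time or culture of origin was given for any group, so p-values measure the spread between 3 arrays a group, which may be technical.

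A junction probe set is built to hybridise across the joined ends of a pair of exons, so its signal depends on how much of the gene's RNA is present and on how often those exons are joined. An exon-part probe set lies inside 1 exon and depends on the RNA that includes it. TRA2A is an SR-like splicing factor that binds purine-rich elements within exons and is known for promoting their inclusion. A change of a single junction beside unchanged exon parts and a change of a whole gene give the same low junction signal, so the values of the neighbouring junctions, the exon parts and the gene as a whole are set beside each junction here.

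The way the tables were made limits these comparisons. All 1465 exon-part and junction probe sets that are listed in both the exon-level and the gene-level table carried the same 231T values in each (within 0.0001 on every array), while none carried the same control or PTX values. For control arrays the exon-level value exceeded the gene-level value by a median of 0.11 (SD over probe sets 0.33, largest absolute difference 1.71), and for PTX arrays by a median of 0.13 (SD 0.34, largest 1.90). Only the 231T values thus passed unaltered from one table to the other, so in the exon-level table group and processing cannot be told apart. Of these shared probe sets, 6 stood at least 4 below control in the exon-level table, and 6 of 6 did so in the gene-level table, the smallest of these differences being -4.18. Only 3 of the 1246 junctions were listed in both tables, under the symbols NMNAT1, BIVM and ZNF714, and they are among these 6. Their values were identical to each other, so they count as 1 measurement, which was -4.13 in the exon-level and -4.19 in the gene-level table and met the rule in each.

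The array median over all junctions lay between 5.33 and 5.41 in control and PTX arrays and between 4.93 and 4.99 in 231T arrays. The labels were checked on the gene-level table. TRA2A measured 6.50, 7.15 and 6.95 in control, 8.32, 7.82 and 7.60 in PTX, and 9.37, 9.42 and 9.19 in 231T. All 231T arrays were above all others (limma, 231T minus control 2.46, adjusted p = 0.000266). The PTX difference of 1.04 did not pass (limma, adjusted p = 0.0539). TRA2B, the paralog of TRA2A, was also higher in 231T (limma, 1.72, adjusted p = 0.00206). Of the markers of the line, VIM was near 13.1 in all groups and ESR1, PGR and CDH1 lay between 3.56 and 3.95, but KRT19, listed as low in this line, measured 8.74 in control. EPCAM, also listed as low, measured 4.88 in control and 4.74 in 231T. Of the others listed as present, CD44 was higher in 231T (10.46 in control, 11.43 in 231T, adjusted p = 0.00443 by limma), with a further CD44 cluster at 4.23 in control. AXL (-1.28, adjusted p = 0.00253) and MSN (-0.97, adjusted p = 0.00551) were lower by limma, and CAV1 was not called (0.09, adjusted p = 0.806). No probe set with ERBB2 as its only symbol was found.

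**Figure D1:**
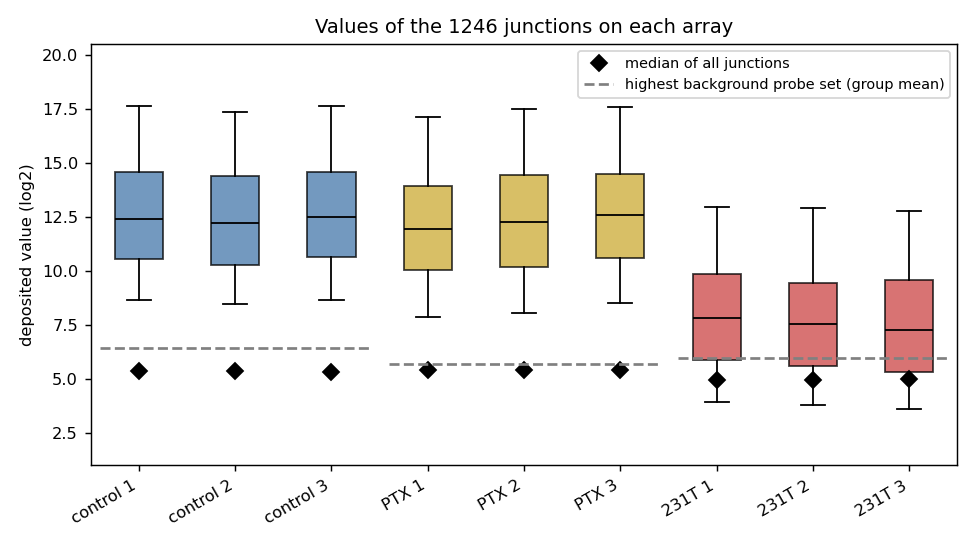
Deposited log2 value (y axis) of the 1246 junctions on each of the 9 exon-level arrays (x axis); boxes span the quartiles with the median as a line, whiskers the 5th to 95th percentile, diamonds mark the median of all junctions and dashed lines the brightest background probe set of the group. The medians of the boxes lie between 11.92 and 12.56 on control and PTX arrays and between 7.24 and 7.80 on 231T arrays.

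The 1246 junctions were bright in control cells. Their control means ran from 7.06 to 19.89, with a median of 12.30, whereas all junctions had a median of 5.28. Fewer cells of a kind and less RNA per cell cannot be told apart in such whole-culture RNA. Their 231T means ran from 2.67 to 15.71 with a median of 7.47, and their PTX means had a median of 12.17. The plot of values by array shows the same on single arrays, with medians of 12.41, 12.21 and 12.48 in control, 11.92, 12.26 and 12.56 in PTX, and 7.80, 7.56 and 7.24 in 231T. The difference between 231T and control had a median of -4.56, with quartiles of -5.04 and -4.22. It reached -6 or lower in 109 junctions, -8 or lower in 10, and -10 or lower in 2. The difference between PTX and control had a median of -0.22. The limits hold 231T well below PTX (the smallest gap between their means was -3.04), and every PTX array lay above every 231T array in 1230 junctions.

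Control means above 16, the top of a 16-bit scale, occurred in 164 of the junctions. The origin of such high values is not given in the sources used here. Differences are therefore kept on the log2 scale and are not read as folds of RNA. The gap from the lowest control array to the highest 231T array had a median of 3.41. It was under 1 in 25 junctions and at least 3 in 885.

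The word lost fits part of the junctions. The array carries 23 background probe sets binned by GC count, whose 231T means ran from 2.68 to 5.94. The 231T mean lay at or below the brightest of them in 351 of the 1246 junctions (28.2%) and at or below their median of 3.83 in 31, while none did so in control or PTX. Over all junctions, 63.1% lay at or below the brightest in 231T. In 551 of the junctions the 231T mean was still 8 or more, and in 249 it was 10 or more. Most of these junctions were thus lower in 231T and still above the array's background, and they are called low junctions here.

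The SD over the 3 arrays had a median of 0.48 in control, 0.69 in PTX and 0.72 in 231T. To set this beside junctions of like brightness, the range between the quartiles of the low junctions' control means was taken, which held 622 low junctions (median control mean 12.30) and 27343 others (median 11.97). The median SDs in that range were 0.53, 0.70 and 0.71 for low junctions and 0.38, 0.59 and 0.45 for the others. PTX replicate 1 was the lowest PTX array in 713 low junctions (57.2%), and within that range in 56.1% of low junctions and 34.5% of the others. It differed from the mean of the other PTX arrays by a median of -0.55, where PTX replicate 2 differed by 0.06 and PTX replicate 3 by 0.44. Without PTX replicate 3 the rule found 1069 junctions, of which 1025 were among the 1246.

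The limits cut through a continuous range. Without the PTX limit 2356 junctions (0.695% of all) met the rule for 231T, and 1110 of them had PTX 1 or more away from control. The same rule turned round, with 231T at least 4 above control, found 625 junctions. Just inside the limit of -4 lay a junction of RANBP3 and 1 of IGHV1-45, at -4.0015 and -4.0007. Just outside lay a junction of HLA-B on a pair of haplotype contigs, at -3.9969. At the limit for PTX, LOXL2 at -0.998 and PKHD1L1 at 0.9999 fell inside, and GRM8 at 1.0003 and PLCD3 at -1.0024 fell outside.

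The platform annotation gave 1 gene symbol for 1088 of the low junctions, several for 59 and none for 99. The single symbols came to 807 genes, of which 59 have since been renamed. In 168 low junctions all 9 values recurred in another probe set, and the 1246 held 1117 distinct profiles. In 46 the copy carried another symbol, and such junctions cannot be assigned to a single gene. Most genes (676) had 1 profile, 88 had 2, 27 had 3 and 16 had 4 or more.

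**Figure D2:**
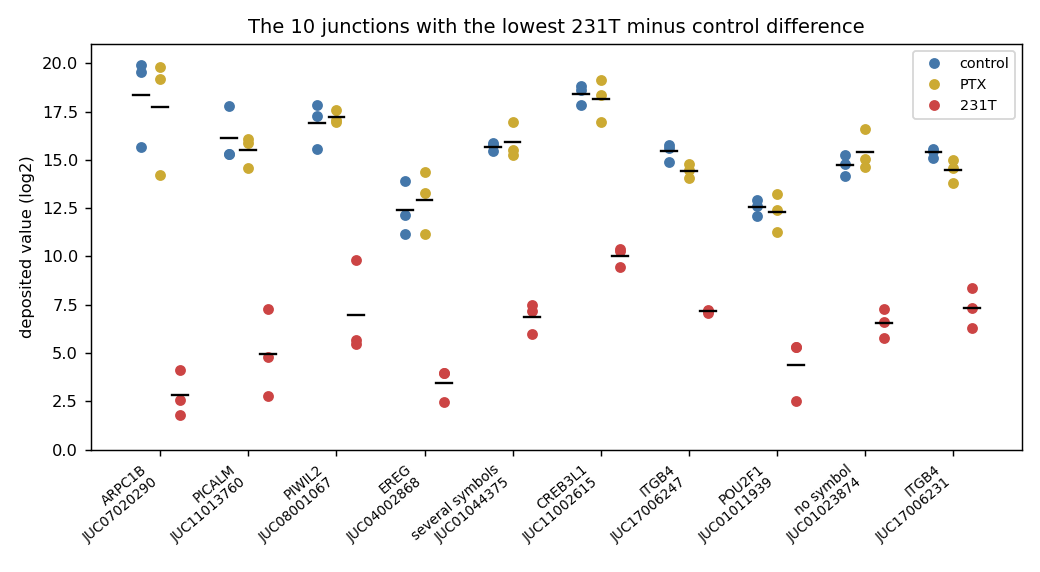
Deposited log2 values (y axis) of the 10 low junctions with the lowest 231T minus control difference (x axis); each dot is 1 array and each short line the mean of 3. In each junction all 3 231T dots lie below all control and PTX dots, since this separation from control was part of the choice.

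The 10 junctions with the lowest difference fell into a pair of patterns, shown in the plot of single arrays. In ARPC1B, PICALM, PIWIL2, EREG and POU2F1 the exon parts of the gene were mostly not called in either direction. Here and in the genes below, the levels of the exon parts are not given. An exon part near background in control has little room to be called lower, so not called is not read as unchanged. In CREB3L1 and ITGB4, the second with a pair of junctions among the 10, nearly the whole gene was lower. The remaining 2 had no single symbol.

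ARPC1B encodes a subunit of the Arp2/3 complex, which nucleates branched actin. Its junction JUC07020290 measured 15.65, 19.91 and 19.52 in control, 19.83, 19.20 and 14.22 in PTX, and 1.81, 4.11 and 2.55 in 231T. The 3 231T arrays lay far below the others, but 1 control and 1 PTX array were themselves several units below their group. The difference from control was -15.54. Its 231T mean of 2.82 lay below the median background probe set (3.83) and its control mean of 18.36 above 16, so the size and first rank of this difference are not a measured amount. Of the gene's 31 tested exon parts 5 were lower and 5 higher in 231T, and the gene-level difference was 0.18 (limma, adjusted p = 0.136). The junction 1 number before was higher in 231T by 1.23 (limma, adjusted p = 0.0237). The one after it differed by -0.85 (limma, adjusted p = 0.328). Of the gene's 29 other tested junctions, 12 were lower and 1 was higher.

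PICALM encodes a clathrin assembly protein of endocytosis. Its junction JUC11013760 measured 17.79, 15.33 and 15.28 in control, 15.89, 14.59 and 16.08 in PTX, and 7.26, 4.78 and 2.78 in 231T. The 231T arrays spread over more than 4 units, with only replicates 2 and 3 below the brightest background probe set. The difference was -11.19. Of 30 exon parts 3 were lower and 4 higher, and the gene-level value differed by 0.28 (limma, adjusted p = 0.466). The junctions on either side differed by 0.37 and -0.75, and limma called neither (adjusted p = 0.661 and 0.578). Of its 28 other tested junctions 7 were lower and 3 higher.

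PIWIL2, a PIWI protein that binds small RNAs in germ cells, had a junction (JUC08001067) at 15.56, 17.83 and 17.29 in control, 16.98, 17.60 and 17.06 in PTX, and 5.49, 9.84 and 5.65 in 231T. Replicate 2 of 231T was about 4 units above the others of its group, and still well below control. Of 19 exon parts 1 was lower and 1 higher. The gene-level difference was -0.001 (limma, adjusted p = 0.994).

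EREG encodes epiregulin, a ligand of the EGF receptor. Its junction JUC04002868 measured 11.15, 12.14 and 13.92 in control, 14.36, 13.29 and 11.18 in PTX, and 2.49, 3.96 and 3.94 in 231T. All 231T arrays lay below the brightest background probe set. The difference was -8.94, and the next junctions differed by 0.47 and -0.06. None of the gene's 10 exon parts was called in either direction, and the gene-level difference was 0.11 (limma, adjusted p = 0.738). POU2F1, which encodes the transcription factor Oct-1, had its junction JUC01011939 at 12.93, 12.11 and 12.59 in control, 11.26, 12.40 and 13.22 in PTX, and 5.30, 5.31 and 2.50 in 231T. The junction that follows it in number was a low junction as well, at -4.61, while of the 32 exon parts 5 were lower and 1 was higher.

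CREB3L1 is a transcription factor held in the membrane of the endoplasmic reticulum until it is cleaved. It had 5 low junctions of 15 on the array. JUC11002615 measured 18.80, 17.85 and 18.63 in control, 16.97, 18.37 and 19.14 in PTX, and 10.28, 9.44 and 10.38 in 231T. Replicates lay within about 1 unit of each other in control and 231T, and the difference was -8.39. The other 4 differed by between -4.54 and -6.92. Of the other tested junctions of CREB3L1, 6 of 7 were lower in 231T, as were 16 of 19 exon parts. At the gene level CREB3L1 measured 10.28 ± 0.35 in control, 9.64 ± 0.78 in PTX and 5.97 ± 0.08 in 231T (mean ± SD, n = 3 arrays each; limma, 231T against control, adjusted p = 0.000206).

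The promoters of CREB3L1 and of TNFRSF21, described further on, are shown because each gene had several low junctions, exon parts that were mostly lower (16 of 19 and 12 of 13) and a single entry in the RefSeq promoter table of GRCh38.p14. Each line gives the 250 bases before the gene's start, at chr11:46294909-46295158 on the plus strand and chr6:47309906-47310155 on the minus strand, and capitals mark a match to GGGCGG or its reverse complement.
CREB3L1: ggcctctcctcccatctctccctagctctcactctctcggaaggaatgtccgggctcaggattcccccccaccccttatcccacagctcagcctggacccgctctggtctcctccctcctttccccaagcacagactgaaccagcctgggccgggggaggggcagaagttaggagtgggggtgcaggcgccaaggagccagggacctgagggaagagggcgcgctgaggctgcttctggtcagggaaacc
TNFRSF21: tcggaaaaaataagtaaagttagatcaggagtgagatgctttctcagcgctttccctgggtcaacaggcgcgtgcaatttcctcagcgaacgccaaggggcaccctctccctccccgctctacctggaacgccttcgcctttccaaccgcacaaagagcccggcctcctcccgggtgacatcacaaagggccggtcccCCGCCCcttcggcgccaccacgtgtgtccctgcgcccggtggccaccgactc
The GC box core GGGCGG, searched on both strands, occurs in 42.6% of the 35116 promoters of this length. The TATA box letters TATAAA occur in 10.7% of them. The CCAAT box, searched the same way, occurs in 32.0%. The CREB3L1 window held none of the 3 and 7 CG dinucleotides at 64.8% GC. The TNFRSF21 window held 1 match to GGGCGG and 20 CG dinucleotides at 62.0% GC. The median over all promoters was 11 CG dinucleotides.

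ITGB4 encodes integrin beta 4, which pairs with integrin alpha 6 in hemidesmosomes. It had 5 low junctions of 45. JUC17006247 measured 15.63, 14.91 and 15.79 in control, 14.07, 14.81 and 14.46 in PTX, and 7.24, 7.08 and 7.15 in 231T, a difference of -8.29. JUC17006231 measured 15.47, 15.11 and 15.58 in control, 13.80, 15.01 and 14.57 in PTX, and 8.37, 7.35 and 6.31 in 231T. In each the 231T arrays were far below the rest, and the PTX minus control differences were -0.998 and -0.92, close to the limit of the rule. In ITGB4, 29 of 36 other tested junctions and 40 of 44 exon parts were lower in 231T. The gene-level value was 9.97 ± 0.21 in control, 8.55 ± 0.23 in PTX and 5.51 ± 0.06 in 231T (mean ± SD, n = 3). It was lower in 231T (limma, -4.46, adjusted p = 2.36e-05), and also lower in PTX (limma, -1.42, adjusted p = 0.00768).

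In the numbering of the array, the nearest junctions to the low ones were more often lower in 231T than junctions in general. At 1 running number before or after a low junction there were 2353 junctions that were not low junctions themselves, of which 1847 passed the filter on dim probe sets. Of these, 746 (40.4%) were lower in 231T than in control and 68 (3.68%) higher (limma, Benjamini-Hochberg adjusted over all 684791 exon-part and junction probe sets tested, threshold 0.05). Over all 248998 tested junctions, 21.9% were lower and 9.31% higher. The share of lower calls among all calls of junctions was 70.2% as deposited, 53.2% after quantile normalization and 49.3% with each array centred on its median. Among the neighbours it was 91.6%, 86.0% and 83.3%. The median difference was -0.96 for neighbours and -0.40 for all tested junctions.

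Bright junctions were lower more often in general. Brightness was read on the control arrays, which also enter the difference, so such a cut itself favours lower calls. Of the neighbours at least as bright in control as the dimmest low junction, 591 of 1058 (55.9%) were lower. Of all tested junctions at or above the same limit, 33.6% were lower. Set against PTX, 706 neighbours (38.2%) were lower in 231T and 65 (3.52%) higher, where the shares over all tested junctions were 22.2% and 8.31%. With each array centred on its median, 428 neighbours (23.2%) were lower than PTX and 126 higher, against 11.99% lower of all tested junctions. Lower than both control and PTX were 604 (32.7%), against 16.1% of all tested junctions. Between PTX and control, limma called 1 neighbour lower (0.0541%, against 0.0847% of all tested junctions) and none higher (against 0.0442%). At an unadjusted p under 0.05, 193 neighbours (10.4%) were lower in PTX, against 6.48% of all tested junctions, and 81 (4.39%) were higher, against 6.48%. These comparisons share arrays, so each is given by its own values.

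Most neighbours belonged to the gene of their low junction. Where the neighbour had the same symbol as the low junction, 678 of 1601 (42.3%) were lower, and where it had another symbol 20 of 85 (23.5%) were. The difference between these shares was not tested. With growing distance the share of lower calls went from 40.4% at 1 number to 37.8% at 5, 33.3% at 10, 28.9% at 20 and 23.0% at 50. Over the same distances the share of junctions with the symbol of the low junction went from 86.7% to 1.93%. Running numbers are not coordinates, and no genome positions of the probe sets were used here.

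**Figure D3:**
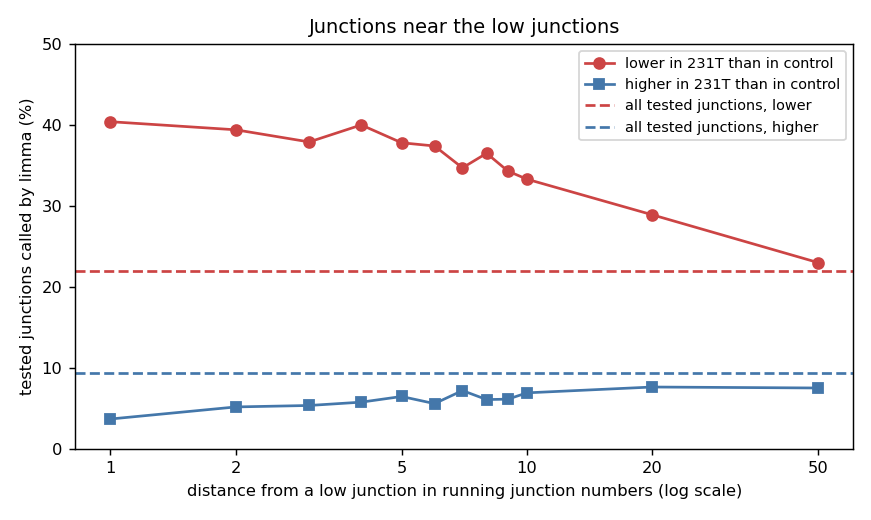
Share of tested junctions called lower (circles) or higher (squares) in 231T than in control by limma (y axis, percent), by distance from a low junction in running numbers of the same chromosome code (x axis, log scale); dashed lines give the shares over all tested junctions. The lower share starts at 40.4% and reaches 23.0% at a distance of 50, near the 21.9% of all junctions.

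Not every low junction lay in a stretch that was lower. In 713 low junctions both next junctions were tested and neither was a low junction. Both were lower in 149 of them (20.9%), 1 was lower in 286 and neither in 278 (39.0%). Over the 66651 other junctions at least as bright in control as the dimmest low junction, with both next junctions tested, both were lower in 8.82% and neither in 61.2%. Low junctions could be among these next junctions. In 155 of the 1219 low junctions with both next junctions on the array (12.7%), both differed by less than 0.5 in either direction, tested or not. The share was much the same over other junctions at or above the same limit of brightness, at 13.5% of 100422. Beyond that limit the others were not matched to the low junctions in brightness. A low junction stood next to another low junction in 72 cases.

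The longest series of consecutive low junctions was in SUSD2, which encodes a membrane protein with a sushi domain, at numbers 854 to 857 of code 22. The junctions of SUSD2 measured 8.30, 8.20 and 8.79 in control at number 854, against 4.96, 3.65 and 2.68 in 231T. At number 856 they measured 14.29, 13.94 and 15.04 in control, 13.61, 14.03 and 13.98 in PTX, and 8.84, 7.08 and 9.33 in 231T. The 231T minus control differences of the 4 were -4.67, -4.78, -6.004 and -4.95, without overlap, which the rule required. The PTX minus control differences of the 4 lay between -0.98 and -0.51. All 8 of the other tested junctions of SUSD2 and 15 of its 19 exon parts were lower, and its gene-level value went from 8.39 ± 0.19 in control to 5.81 ± 0.11 in 231T (mean ± SD, n = 3; limma, adjusted p = 5.89e-05), with 8.01 ± 0.15 in PTX.

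SEMA6B encodes a transmembrane semaphorin, a family of guidance cues. It had 4 low junctions, 3 of them consecutive, at numbers 8221 to 8223 of code 19. At 8221 the values were 17.15, 17.23 and 17.42 in control, 16.61, 16.87 and 17.54 in PTX, and 10.32, 9.50 and 10.73 in 231T. Control and 231T arrays each lay within about 1 unit of each other, and the difference between the group means was -7.08. The next, 8222, was dimmer, at 8.997, 9.10 and 8.63 in control and 4.21, 4.17 and 4.57 in 231T. The flanking junctions of the series were lower too, at -1.0005 and -2.52 (limma, adjusted p = 0.0219 and 0.0045). The gene-level difference of SEMA6B was smaller than that of its low junctions, at -0.996 (limma, adjusted p = 0.000225), and 14 of 19 exon parts were lower.

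TNFRSF21 encodes death receptor 6 of the TNF receptor family. Its 3 consecutive low junctions were numbers 10244 to 10246 of code 6. At 10245 the values were 19.01, 18.95 and 18.64 in control, 18.50, 17.43 and 18.42 in PTX, and 13.71, 13.67 and 14.51 in 231T. The 231T values of TNFRSF21 were thus far above background, and the junctions were lower rather than absent. Its 3 junctions differed by -4.02, -4.90 and -4.54 from control in 231T and by between -0.91 and -0.75 in PTX. Of the gene's exon parts 12 of 13 were lower, and the gene-level difference was -2.43.

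Among the 10 lowest of the junctions with both neighbours lower, KRT19, JUP, BTBD2 and COG1 stood in genes that were lower as a whole. KRT19 encodes a keratin of simple epithelia. Its junction JUC17019061 measured 14.77, 14.68 and 15.28 in control, 13.62, 14.92 and 14.26 in PTX, and 8.74, 8.40 and 8.76 in 231T. At the gene level KRT19 was 8.74 in control, 7.84 in PTX and 6.80 in 231T, and limma called both changes (adjusted p = 0.0003 for 231T and 0.0471 for PTX). JUP, plakoglobin of desmosomes and adherens junctions, had 2 low junctions, and its junction JUC17019082 measured 15.53, 14.71 and 15.27 in control and 9.52, 9.21 and 8.36 in 231T. Of the exon parts of JUP 20 of 23 were lower. In BTBD2, which encodes a BTB domain protein, 11 of 11 exon parts and 6 of 6 other junctions were lower, and the gene-level difference was -3.48.

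YY1AP1, TRPC4AP, TCEA3 and GOLIM4 were in the same 10. The values of the YY1AP1 junction were identical to those of a GON4L junction, so its gene is uncertain. GOLIM4, a Golgi membrane protein, differed from the other named genes of the 10, since only 3 of its 21 exon parts and 7 of its 16 other junctions were lower and its gene-level difference of -0.27 was not called (limma, adjusted p = 0.478). The 231T arrays of its junction JUC03017474 were 11.15, 11.13 and 5.68, so replicate 3 alone lay near background.

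Of the 10 lowest junctions with both neighbours within 0.5 of control, EREG has been described. In RMI1, part of the complex that dissolves recombination intermediates, the junction JUC09002233 measured 16.31, 16.95 and 16.60 in control, 16.73, 16.02 and 16.97 in PTX, and 7.78, 11.48 and 11.60 in 231T. None of its 13 exon parts was lower, 2 were higher and 11 were not called. Of its 6 other tested junctions 3 were lower and 1 was higher, and the gene-level value was higher by 0.73 (limma, adjusted p = 0.0328). CRYAA, the lens protein alpha-crystallin A, had its junction JUC21001190 at 10.20, 10.40 and 10.69 in control, 11.79, 10.44 and 11.75 in PTX, and 4.19, 4.48 and 3.86 in 231T, with 1 of 8 exon parts lower. PLAGL1, a zinc finger protein, had 4 of 18 exon parts lower and a gene-level difference of -0.05 beside a junction difference of -6.42. Both neighbours of the CRYAA junction and of the PLAGL1 junction were left out of tests as too dim, so they say little about a fall. HLA-H and CYP2A7P1 belong to families of near-identical copies, so the source of their signal is uncertain. In HLA-H 8 of 11 exon parts were lower and the gene-level difference was -1.52 (limma, adjusted p = 0.00037). In CYP2A7P1 1 of 6 exon parts was lower. C21orf33, now named GATD3, had 9 of 17 exon parts lower and a gene-level difference of -0.46 (limma, adjusted p = 0.0199), and both neighbours of its junction were likewise untested.

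**Figure D4:**
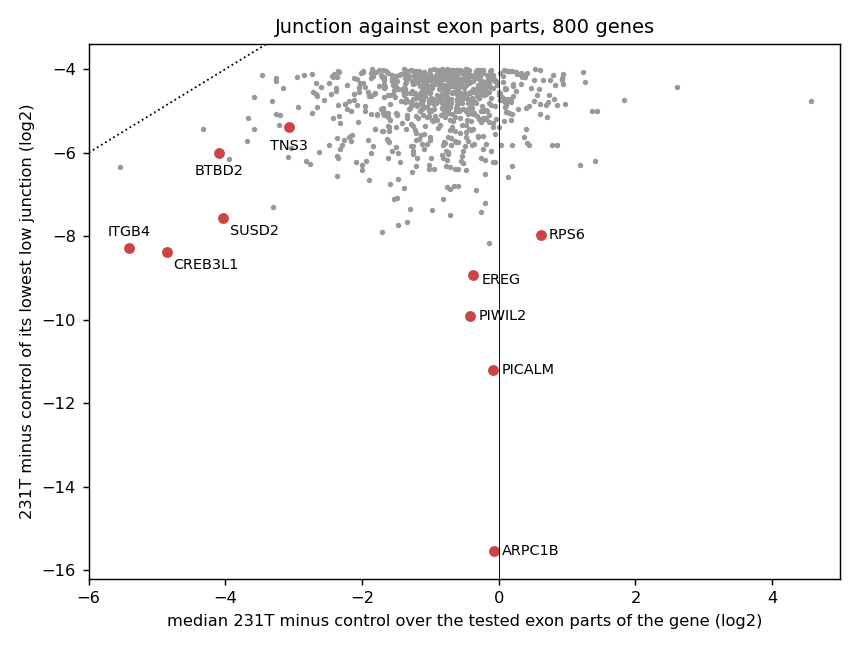
Difference between 231T and control of the lowest low junction of each of 800 genes (y axis, log2) against the median difference over the gene's tested exon parts (x axis, log2); the dotted line marks equal values and named genes are in red. ITGB4 and CREB3L1 lie to the left, where the exon parts were lower as well, and ARPC1B, PICALM, PIWIL2 and EREG lie near 0 on the x axis.

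Across the genes of the low junctions, the exon parts were lower in 231T more often than exon parts in general. Genes were counted here by symbol and code, on the codes 1 to 22, X and Y only. Of these, 800 had at least 3 tested exon parts, 20946 in all. Of these exon parts, 8833 (42.2%) were lower and 836 (3.99%) higher in 231T than in control by limma, against 23.8% and 8.12% of all 435793 tested exon parts. With each array centred on its median, 5781 (27.6%) were lower and 1513 higher, against 10.8% lower of all exon parts. In 769 genes at least 3 other junctions were tested, low junctions left out. These other junctions were lower in 5467 of 14609 cases (37.4%) and higher in 734 (5.02%), against 21.9% and 9.31% of all tested junctions. The median over genes of the exon-part median was -0.77, where all tested exon parts had a median of -0.39.

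The genes spread over a wide range, as the plot of junctions against exon parts shows. The exon-part median was -2 or lower in 82 genes (10.2%), between -2 and -1 in 229 (28.6%), between -1 and 0 in 398 (49.8%), and 0 or above in 91 (11.4%). All tested exon parts were lower in 10 genes, and none was lower in 41. The low junction thus lay far below the typical exon part of its own gene in most genes. It had been picked as an extreme value and the exon parts had not, so the size of this gap is given without a test.

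The gene-level table, fitted on its own, gave a tested value for 754 of the genes. Of these 348 (46.2%) were lower and 50 (6.63%) higher in 231T, and 356 were not called (limma). Over all 50646 tested gene-level probe sets, 12.5% were lower and 9.75% higher. Genes with low junctions were bright, with a median control level of 6.87 against 4.50. Among those at or above 6.87, 219 of 377 (58.1%) were lower, against 29.9% of all 8081 gene-level probe sets that bright. The limit was set on control values, which also enter the difference, so it favours lower calls in both shares. The RNA samples are those of the exon-level table, so this is a second summary of the same samples and not an independent repeat.

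A number of genes carried many low junctions. TNS3, which encodes tensin 3 of focal adhesions, had the most, 10 of its 46 junctions, all with different values. Its lowest, JUC07010414, measured 14.23, 13.52 and 14.33 in control, 13.89, 13.12 and 13.47 in PTX, and 9.42, 8.58 and 7.94 in 231T. The 10 junctions of TNS3 had control means from 8.93 to 16.27. They differed from control by between -5.38 and -4.03 in 231T and by between -0.66 and 0.37 in PTX. The rule cut the first range at -4, and the median difference over the exon parts of TNS3 was smaller, at -3.07. Of its other tested junctions 23 of 30 were lower, as were 43 of 52 exon parts, and none of either was higher. The gene-level value was 9.28 ± 0.18 in control, 9.15 ± 0.26 in PTX and 6.93 ± 0.21 in 231T (mean ± SD, n = 3; limma, 231T against control, adjusted p = 0.000134).

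HIF1A, the oxygen-regulated subunit of hypoxia-inducible factor, had 6 low junctions of 22. Its JUC14011321 measured 15.77, 15.65 and 15.17 in control, 16.79, 13.30 and 15.64 in PTX, and 10.56, 10.996 and 9.67 in 231T. The PTX arrays of HIF1A spread more widely than the others, from 13.30 to 16.79. Its gene-level value went from 13.19 ± 0.25 in control to 11.14 ± 0.52 in 231T (limma, adjusted p = 0.0103), and 19 of 26 exon parts were lower. ITGA3, the alpha 3 chain of a laminin receptor, had 4 low junctions, with 26 of 28 other junctions and 42 of 51 exon parts lower. Its gene-level difference was -2.26 (limma, adjusted p = 0.000319).

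In all 16 genes had at least 4 profiles. Besides TNS3, HIF1A and ITGA3, and CREB3L1, ITGB4, SUSD2, SEMA6B and C21orf7, they were MYOF (myoferlin, of membrane repair), MED24 (a Mediator subunit), GLG1 (a Golgi glycoprotein), LPCAT3 (a lysophospholipid acyltransferase), PXDN (peroxidasin, which crosslinks collagen IV) and ZMYM3 (a zinc finger protein), along with GTF2I and GTF2IP1. These genes, TNS3, HIF1A and ITGA3 were chosen for their number of low junctions after the values were seen. The gene-level differences of the 6 ran from -2.41 in LPCAT3 to -1.17 in MED24, and limma called all 6 lower. GTF2I, a transcription factor, and its pseudogene GTF2IP1 had low junctions with identical values, so the copies cannot be told apart.

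C21orf7, now named MAP3K7CL, was the exception among genes with many low junctions. Its 4 low junctions differed by between -5.80 and -4.17. JUC21000344 measured 15.05, 13.83 and 13.95 in control, 14.89, 13.03 and 14.11 in PTX, and 8.32, 8.80 and 8.32 in 231T, with the 231T arrays close together and far below the rest. Yet of the 22 tested exon parts of C21orf7 1 was lower and 5 were higher, and of its 13 other tested junctions 2 were lower. In this gene 4 junctions stood apart from exon parts that were mostly not called.

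RPS6, a protein of the small ribosomal subunit, had its junction JUC09006881 at 13.56, 15.67 and 14.92 in control, 15.46, 16.63 and 14.39 in PTX, and 10.00, 5.83 and 4.42 in 231T. None of its 11 exon parts was lower and 4 were higher, and the gene-level difference of 0.30 was not called (limma, adjusted p = 0.118). The junction before it was lower as well (limma, -1.82, adjusted p = 0.00683), and of 5 other tested junctions 2 were lower and none higher. The 231T arrays of RPS6 spread over more than 5 units, and replicate 1 was well above background. DST, which encodes the cytoskeletal linker dystonin, had its junction JUC06010698 at 13.88, 13.52 and 14.69 in control and 6.64, 7.80 and 7.91 in 231T. Of 149 tested exon parts of DST 7 were lower and 8 higher. RPS6 and DST held the lowest junctions of their codes, and such genes differed. More exon parts were lower in PXDN (34 of 48), NEO1 (22 of 37) and EDIL3 (10 of 19). Fewer were lower in BANP (6 of 34) and PPP2R5C (6 of 29).

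By chromosome code, which was read from the probe set name, the codes 1 to 22, X and Y held 1136 of the low junctions (0.349% of their junctions). Code 1 held the most, 113. As a share of all junctions of a code, code 17 stood at 0.585% (95 low junctions), code 11 at 0.543% (92) and code 19 at 0.538% (84), and code 13 was lowest at 0.183% (11). Over bright junctions alone, 1.20% were low junctions across all codes, contigs included. Code Y stood at 1.92%, on only 4 low junctions among 208 bright ones. Code 11 stood at 1.72%, code 19 at 1.65%, code 21 at 1.62%, code 22 at 1.53% and code 17 at 1.52%, while code 15 stood at 0.648% and code 13 at 0.677%. The codes also differed in how often limma called junctions lower at all, from 14.5% on code 18 to 31.3% on code 19 and 29.0% on code 17. The shares per code are descriptions, since junctions of a gene are not independent.

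**Figure D5:**
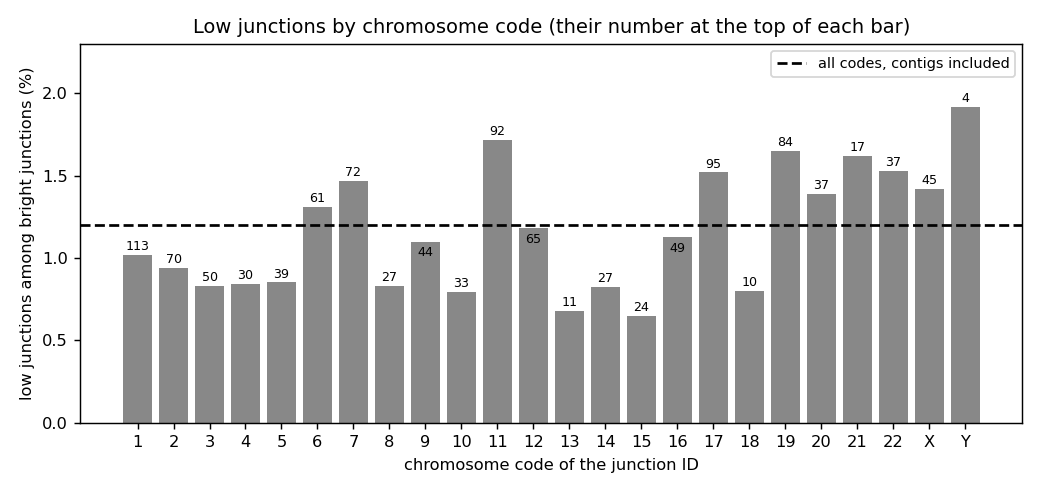
Low junctions as a share of the junctions of each chromosome code that were at least as bright in control as the dimmest low junction (y axis, percent; x axis, code), with their number at the top of each bar; the dashed line is the share over all codes. Codes 11, 17, 19, 21, 22 and Y exceed 1.5%, and the bar of code Y rests on 4 low junctions. The share over all codes includes the contigs.

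The lowest junction of a code lay between -15.54 for ARPC1B on code 7 and -4.83 for CRLF2 on code Y. CRLF2, a chain of the receptor for thymic stromal lymphopoietin, had its junction JUC0Y001856 at 9.19, 9.31 and 8.29 in control, 9.42, 9.13 and 9.69 in PTX, and 4.52, 3.67 and 4.14 in 231T. Both of its neighbours and 6 of its 7 exon parts were lower. Of the 4 low junctions on code Y, 2 had values identical to junctions on code X, so code Y is uncertain for them. The code was read from the name alone, and whether any of the 4 signals came from the Y chromosome was not checked. On code 22 the lowest junction was that of APOBEC3C, a cytidine deaminase of a family with near-identical copies, at -7.91. On code X it was that of IQSEC2, an exchange factor of synapses, at -6.63, with 14 of 21 exon parts lower.

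The contigs of alternative chromosome 6 haplotypes held 107 low junctions of 12738 (0.84%), but with only 24 distinct profiles. In 89 of the 107 the profile also occurred on code 6, so most of them repeat the same measurement. Their single symbols came to 11, among them TAPBP and PSMB8, which act in the loading and cutting of antigen peptides, FLOT1, a membrane scaffold protein, and DDR1, a collagen receptor. Leaving out contigs and all junctions with copies left 1076 low junctions. Of the neighbours of these, 646 of 1622 (39.8%) were lower in 231T.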

How the data were processed

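Per the submitters' processing notes, the log2 values that the authors deposited came from RMA, which corrects background, normalizes and summarises probes, in Affymetrix Expression Console 1.3.1. The annotation build is not given in the sources used here, nor whether all arrays were normalized together. The exon-level table held 914585 probe sets on 9 arrays, and the gene-level table another 9 records. Values were used as deposited. Probe sets with a mean under the 25th percentile (3.89) were left out of tests, which all 1246 low junctions passed. limma 3.58.1 in R 4.3.3 fitted the 3 groups together (degrees of freedom: residual 6, prior 3.55), and p-values were adjusted by Benjamini-Hochberg, threshold 0.05. Tables were fitted separately. The fit was tested on simulated data. The number of arrays limits the precision, and the median residual SD was 0.46.

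The members, tests and lists were chosen with earlier results of these data known. The lists for naming held the 10 junctions with the lowest difference, the lowest of each code and the 3 longest consecutive series. They also held the 10 lowest with both neighbours lower, the 10 lowest with both within 0.5, and those beside the limits. Not every junction of these lists is described. Gene-level and exon-part comparisons, and genes with at least 4 profiles, were added after seeing the data. Symbols came from the platform annotation in the files supplied, updated through RefSeq, where 806 of 807 single symbols matched a current gene.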

Additional observations from a re-analysis of the deposited data

How the results depend on the processing

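The number of low junctions depended on the limits and on scaling: 739 with each array centred on its median (736 of them among the 1246), 889 after quantile normalization, 4552 at a limit of -3, 325 at -5 and 688 with PTX within 0.5. Leaving out 1 array gave 1069 to 1476, of which 996 to 1126 were among the 1246. Without control replicate 3 these were 996 of 1194, and without 231T replicate 1 they were 1100 of 1476. The count at background fell to 31 with the median background probe set in place of the brightest, and was 339 to 389 with 1 array left out. Junctions lower in 231T numbered 34454 after quantile normalization and 32204 after centring, and 40069 to 56312 with 1 array left out. Neighbours lower than control were 1413 up to 2 numbers away, 3175 up to 5, and 603 to 763 with 1 array left out. After centring 30.5% of neighbours were lower against 12.9% of all tested junctions, and after quantile normalization 31.9% against 13.8%. Neighbours lower than PTX were 428 after centring and 521 to 669 with 1 array left out. The single neighbour lower in PTX by limma became 0 with only the 2 groups compared, with junctions fitted alone and with any 1 array left out. Exon parts lower in genes of low junctions were 5781 after centring (27.6%, against 10.8% of all exon parts), and genes lower at the gene level 297 to 372 with 1 array left out. The cause of these shifts was not tested, apart from the limits and distances, which change what is counted.

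Same-numbered arrays did not vary together (correlations of their deviations from the group means between -0.14 and 0.08), so the replicate numbers were not taken as pairs. With the replicate number as a block, 700 neighbours were lower than control, 634 lower than PTX, 0 lower in PTX than control, and 49769 of all junctions were lower.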
